A study of Mus musculus with 2 samples.

Results

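The interferon regulatory factor family was followed as 8 genes, Irf1, Irf2, Irf3, Irf4, Irf5, Irf7, Irf8 and Irf9, out of 32286 features counted in heart leukocytes of mice. The genes were chosen by symbol, and each symbol matched 1 feature. The first group received LOY bone marrow, marrow that had lost the Y chromosome, and the second received control marrow. All mice of both groups had TAC, transverse aortic constriction, surgery that narrows the aortic arch and raises the pressure the heart pumps against. Viable CD45+ RFP+ cells, the marrow-derived leukocytes by the sort, were taken from digested left ventricles and pooled from 3 mice per group into 1 droplet single-cell RNA library each. No label gave the age, the strain or the means by which the Y chromosome was removed. With 1 library per group there was no replicate and no test, and every interval below is a 95% interval for counting error only.

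Interferon regulatory factors share a DNA-binding domain that reads GAAA repeats in the promoters of interferon-responding genes. Irf3, Irf5 and Irf7 lie downstream of sensors of nucleic acids and bacterial products and switch on interferon genes, whereas Irf9 is the DNA-binding part of the complex that answers type I interferon. Irf1 and Irf2 bind the same sites, mostly as an activator and a repressor, and Irf4 and Irf8 pair with partners such as Spi1 (PU.1) and Batf3 to shape B cells, plasma cells, dendritic cells and monocytes.

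Upstream windows of 5 members are shown because Irf1, Irf2 and Irf8 held a motif of interferon signalling and because Irf7 and Irf5 differed between the libraries in the most groups of cells. The sequences come from RefSeq on build GRCm38.p6 and run from 250 bases before to 50 bases after a start site, 5′ to 3′ on the gene's strand. Capitals mark a match to the interferon-stimulated response element (ISRE, GAAA, any 2 bases, GAAA), the STAT site (GAS, TTC, any 3 bases, GAA) or the joint Ets and Irf site (EICE, GGAA, any 2 bases, GAAA), searched on both strands.
Irf1 promoter, chr11:53769764-53770063, plus strand: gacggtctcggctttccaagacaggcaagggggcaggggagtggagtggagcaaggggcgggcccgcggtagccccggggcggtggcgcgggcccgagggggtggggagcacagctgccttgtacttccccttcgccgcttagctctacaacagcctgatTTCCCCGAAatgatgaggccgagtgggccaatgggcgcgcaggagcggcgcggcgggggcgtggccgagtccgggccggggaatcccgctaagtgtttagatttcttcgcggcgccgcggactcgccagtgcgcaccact
Irf2 promoter, chr8:46739495-46739794, plus strand: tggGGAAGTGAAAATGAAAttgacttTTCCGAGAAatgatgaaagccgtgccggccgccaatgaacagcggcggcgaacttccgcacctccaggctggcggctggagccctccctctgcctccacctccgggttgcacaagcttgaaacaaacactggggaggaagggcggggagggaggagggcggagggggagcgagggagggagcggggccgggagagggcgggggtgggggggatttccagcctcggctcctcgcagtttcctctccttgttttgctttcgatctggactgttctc
Irf8 promoter, chr8:120736108-120736407, plus strand: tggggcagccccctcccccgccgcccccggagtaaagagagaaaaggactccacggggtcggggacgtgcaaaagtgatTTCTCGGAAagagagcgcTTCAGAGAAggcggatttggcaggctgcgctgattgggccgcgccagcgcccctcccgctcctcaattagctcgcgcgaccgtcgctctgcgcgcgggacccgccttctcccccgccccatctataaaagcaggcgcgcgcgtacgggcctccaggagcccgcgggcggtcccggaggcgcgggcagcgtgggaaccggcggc
Irf7 promoter, chr7:141266375-141266674, minus strand: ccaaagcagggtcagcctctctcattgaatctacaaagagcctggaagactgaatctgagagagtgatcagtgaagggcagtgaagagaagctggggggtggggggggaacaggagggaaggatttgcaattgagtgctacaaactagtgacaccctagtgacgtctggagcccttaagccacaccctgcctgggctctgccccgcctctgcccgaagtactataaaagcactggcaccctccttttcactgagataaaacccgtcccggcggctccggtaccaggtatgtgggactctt
Irf5 promoter, chr6:29526375-29526674, plus strand: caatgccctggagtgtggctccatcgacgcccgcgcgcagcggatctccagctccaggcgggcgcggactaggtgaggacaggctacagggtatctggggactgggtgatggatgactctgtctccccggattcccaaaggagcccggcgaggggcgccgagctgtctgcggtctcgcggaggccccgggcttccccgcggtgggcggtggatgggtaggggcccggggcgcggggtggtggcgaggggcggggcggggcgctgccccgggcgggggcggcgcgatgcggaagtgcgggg
The Irf1 window held a GAS match, TTCCCCGAA, that began 90 bases before the start site. The Irf2 window held an EICE match, GGAAGTGAAA, which overlapped an ISRE match, GAAAATGAAA, and a GAS match, TTCCGAGAA, began 224 bases before the start site. In the Irf8 window there were 2 GAS matches, TTCTCGGAA and TTCAGAGAA, that began 171 and 153 bases before the start site. Of all 27018 promoters of this length, 3.49% held the ISRE letters, 8.47% the GAS letters and 2.79% the EICE letters. None of the 3 letter patterns was in the windows of Irf3, Irf4, Irf5, Irf7 or Irf9, nor in the windows at the other listed start sites of Irf1, Irf8 and Irf9. A match describes letters only.

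The members lie on different chromosomes except for pairs on chromosomes 7 and 8. On build mm10 with GENCODE M21 genes, Irf7 spans chr7:141262706-141266481 on the minus strand and Irf3 chr7:44997648-45002848 on the plus strand. Irf2 spans chr8:46739732-46847458 and Irf8 chr8:120736358-120756694, both on the plus strand. Irf1 spans chr11:53770014-53778374, Irf4 chr13:30749226-30766976, Irf5 chr6:29526625-29541871 and Irf9 chr14:55603571-55610030, all on the plus strand. Irf9 overlaps Rnf31 on the same strand, so its counts may have lost shared reads and are less certain. Irf8 overlaps the gene model Gm20388 in the same way in this annotation, though that model was not among the counted features.

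For the LOY library 5475 barcodes carried 18710715 UMIs, molecular tags that stand for single transcripts, with a median of 3026 per barcode, against 7276 barcodes, 42640861 UMIs and a median of 5109.5 in the control library. After filtering, 5177 LOY cells and 6909 control cells were kept, and 31 barcodes occurred in both libraries. Y-linked transcripts (Ddx3y, Eif2s3y, Kdm5d and Uty) summed to 14.3 CPM in LOY cells and 124 CPM in control cells (CPM, UMIs scaled so that each sum of cells has the same total), which checks the labels. RFP had 0 UMIs in both. Genes of cell dissociation and the immediate early response were lower in the LOY library in every group of cells but the platelet-like, with a summed 5319 CPM in LOY and 15073 CPM in control macrophage-like cells (ratio 0.353), and the part of this in the Irf differences was not tested.

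Cells were sorted into 23 clusters without use of the 8 members, and clusters were named only from cell type markers. Macrophage-like cells numbered 2453 in the LOY and 2500 in the control library, but different clusters held them. LOY macrophage-like cells were mostly clusters 4 (led by Gpnmb and Spp1, 1098 LOY and 13 control cells), 8 (led by Fcna and Ltc4s, 701 and 155) and 3 (led by Ifit2 and Ifit3, 516 and 416). Control ones were mostly clusters 6 (led by Cd209f and Cd209g, 64 LOY and 1049 control cells), 7 (led by Slc40a1 and Gdf15, 33 and 766) and 3. Cluster 17 (led by Cxcl13 and Vsig4) added 41 LOY and 101 control cells. Clusters 1 (Tmem119 and Ly6c2), 2 (the cycling genes Hist1h1b and Top2a), 5 (Mmp12 and Retnla) and 9 (H2-Eb1 and Lilra5) were closest to macrophages but had a marker of another type among their leading genes, so they kept their numbers. So did cluster 20 (48 LOY and 26 control cells), which had macrophage markers but cardiomyocyte genes in the lead. Levels are CPM of the UMIs summed over a group of cells, and they were compared only within a gene. A gene was measured in a group at 10 CPM or more in either library, and it was counted as higher or lower when the ratio of LOY to control, with 10 CPM added to both, passed 1.5-fold.

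Across groups of at least 50 cells (15 in the LOY and 16 in the control library), 6 of 8 members peaked in the same group in both libraries, and Irf7 and Irf9 did not. Irf8, a lineage factor of monocytes and type 1 conventional dendritic cells (cDC1), peaked in cDC1-like cells at 1885 CPM in LOY (1726 to 2055) and 2217 CPM in control (2117 to 2321). Its next level in these groups was 265 CPM in cluster 3 of the LOY library and 424 CPM in cluster 2 of the control library. The cDC1-like peak thus stood clear of all other groups of at least 50 cells in each library. Outside these groups, NK cell-like cells of the LOY library (49 cells) had 476 CPM of Irf8 (53 UMIs). The few plasmacytoid dendritic cell-like cells, given below, had more Irf8 than cDC1-like cells. Irf4, known from B cells, plasma cells and some dendritic cells, peaked in B cell-like cells at 41.2 CPM in LOY and 80.9 CPM in control. In neutrophil-like cells Irf4 had 0 UMIs in both libraries, which allows up to 20.8 CPM in LOY and 3.94 CPM in control. Irf5, a factor downstream of Toll-like receptors in myeloid and B cells, was highest in cDC1-like cells, at 117 CPM in LOY and 246 CPM in control. Its low end was 17.5 CPM in T cell-like cells of the LOY library and 22.4 CPM in NK cell-like cells of the control library. The LOY NK cell-like cells, too few for this order, had 0 UMIs of Irf5. Irf1 peaked in neutrophil-like cells (139 CPM in LOY, 241 CPM in control) and was lowest in cDC1-like cells (18.3 and 32.5 CPM). Irf2 and Irf3 both peaked in B cell-like cells, Irf2 at 284 CPM in LOY and 334 CPM in control, and Irf3 at 77.7 and 70.1 CPM. Irf9, which reads the interferon-responding sites within its complex, spanned little, from 41.2 to 103 CPM in LOY and from 38.9 to 105 CPM in control. Most neighbours in these orders had intervals that met. In the LOY library they met in 14 of 14 neighbours for Irf1, Irf3, Irf4, Irf5 and Irf9, and in the control library in 15 of 15 for Irf2 and Irf9. The LOY peak of Irf5 in cDC1-like cells was thus not set apart from 111 CPM in nonclassical monocyte-like cells, nor that of Irf1 in neutrophil-like cells from 116 CPM in cluster 5. In the control library the peaks of Irf1, Irf3, Irf4 and Irf8 stood apart from the next group, and those of Irf2, Irf5 and Irf9 did not.

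**Figure D1:**
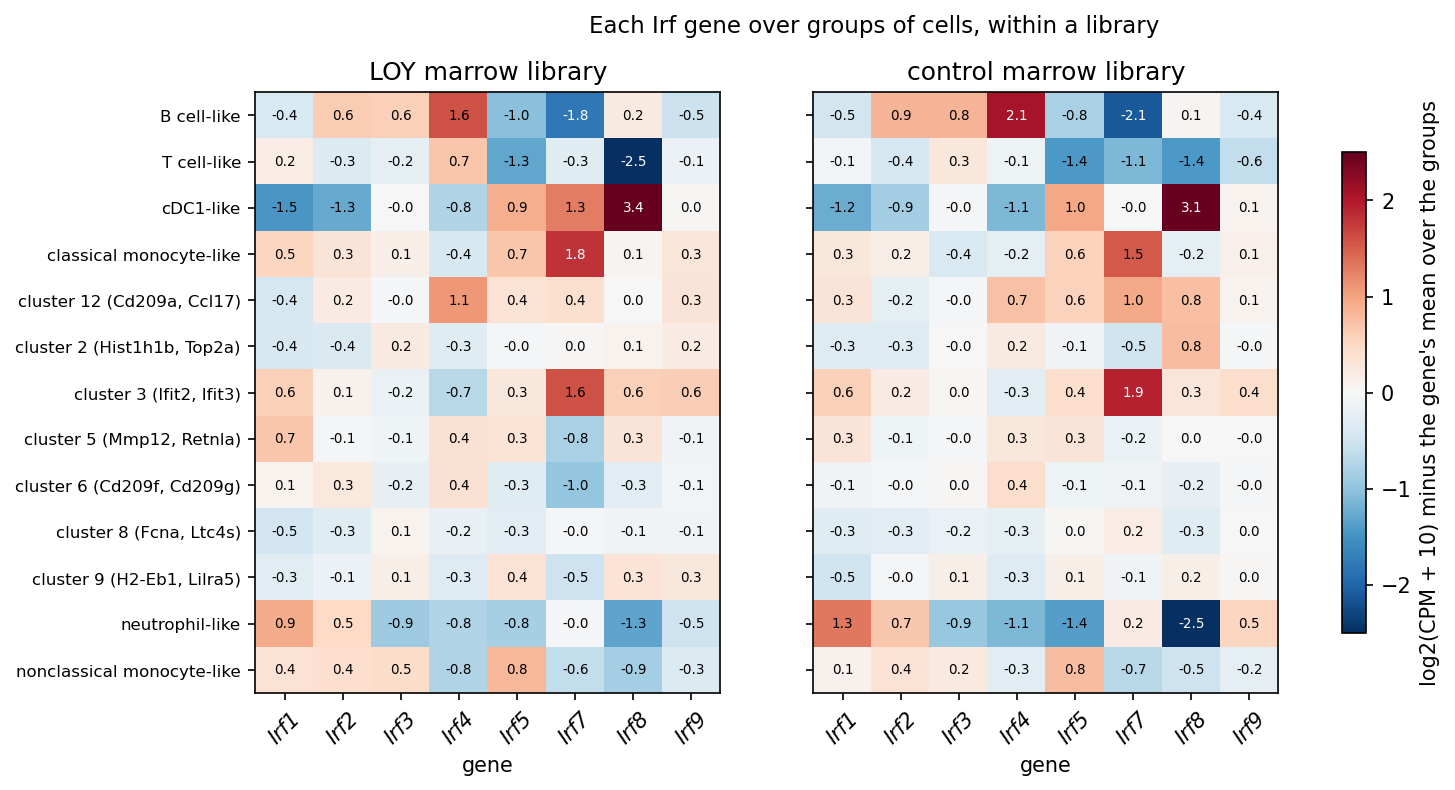
Each cell is a gene's log2(CPM + 10) in a group of cells minus the mean of that gene over the 13 groups with at least 50 cells in each library, for LOY marrow on the left and control marrow on the right, with values past the ends of the scale in the end colours. Irf8 stands out in cDC1-like cells (1885 CPM in LOY, 2217 CPM in control), and Irf7 in classical monocyte-like cells (1160 and 556 CPM) and cluster 3 (1004 and 737 CPM). Irf4 is highest in B cell-like cells (41.2 and 80.9 CPM). Its LOY interval there (9 UMIs, 18.8 to 78.1 CPM) met that of cluster 12 (12.3 to 47.0 CPM).

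Irf7, the interferon-inducible factor that amplifies the type I interferon response, had several steps that stood apart. In the LOY library it ran from 1160 CPM in classical monocyte-like cells, 1004 CPM in cluster 3 and 798 CPM in cDC1-like cells to 161 CPM in cluster 6 and 86.9 CPM in B cell-like cells. Between these ends lay cluster 1 (521 CPM), cluster 12 of Cd209a and Ccl17 cells (432), cluster 4 (355), cluster 2 (330), neutrophil-like cells (319), cluster 8 (314), T cell-like cells (262), cluster 9 (225), nonclassical monocyte-like cells (207) and cluster 5 (180 CPM). In the control library the order began with cluster 3 at 737 CPM, classical monocyte-like cells at 556 CPM and cluster 12 at 371 CPM, and it ended with T cell-like cells at 80.6 CPM and B cell-like cells at 36.1 CPM. The top 3 steps stood apart from the next in both libraries, whereas most of the middle neighbours had intervals that met (11 of 14 neighbours in LOY and 10 of 15 in control). The cDC1-like cells had rank 3 of 15 for Irf7 in the LOY library and rank 7 of 16 in the control library.

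In macrophage-like cells, Irf7 was higher and Irf1, Irf4 and Irf5 were lower in the LOY library, while Irf2, Irf3, Irf8 and Irf9 stayed within 1.5-fold. Of the 8 members measured there, 1 was thus higher, beside 5.68% of the 7782 measured genes, and 3 were lower, beside 9.03%. The median log2 ratio was -0.13 over the members and -0.05 over all genes. Irf7 summed to 4440 UMIs (470 CPM, 456 to 484) in LOY and 4876 UMIs (263 CPM, 256 to 271) in control macrophage-like cells, a ratio of 1.78 (1.71 to 1.86). Irf5 had 53.3 CPM in LOY and 124 CPM in control, a ratio of 0.429 (0.388 to 0.472). Irf1, the interferon gamma-inducible activator, had 63.5 CPM in LOY and 105 CPM in control, a ratio of 0.607 (0.553 to 0.666). Irf4 was sparse, with 24 UMIs (2.54 CPM) in LOY and 248 UMIs (13.4 CPM) in control, a ratio of 0.190 (0.119 to 0.289). Irf4 passed the floor of 10 CPM only through the control library and could not have been called higher, so the count without it is 2 lower of 7. Irf3, the latent factor activated by Tbk1, had 49.6 CPM in LOY and 34.4 CPM in control (ratio 1.44, 1.28 to 1.63). Irf2 had 159 CPM in LOY and 172 CPM in control, Irf8 213 and 235 CPM, and Irf9 67.1 and 74.5 CPM, with ratios of 0.921 (0.865 to 0.979), 0.906 (0.859 to 0.956) and 0.902 (0.820 to 0.991). The intervals of all 8 members thus left out 1 in these cells, whatever the size of the difference. Intervals are narrow at this depth, and the share of all genes whose interval left out 1 was not counted. The markers of cDC1, in which Irf8 and Irf5 peaked, summed to 144 CPM in LOY and 288 CPM in control macrophage-like cells, and those of type 2 conventional dendritic cells (cDC2) to 203 and 729 CPM. All 8 markers of each type were detected in both libraries, but so were all 7 cardiomyocyte markers. The cDC2 list holds Clec10a, a leading gene of macrophage-like cluster 6 (64 LOY and 1049 control cells). The cDC1 list holds Batf3 (29.4 CPM in LOY, 80.5 CPM in control). Neither sum is thus specific to dendritic cells, and the part of these markers in the values was not tested.

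**Figure D2:**
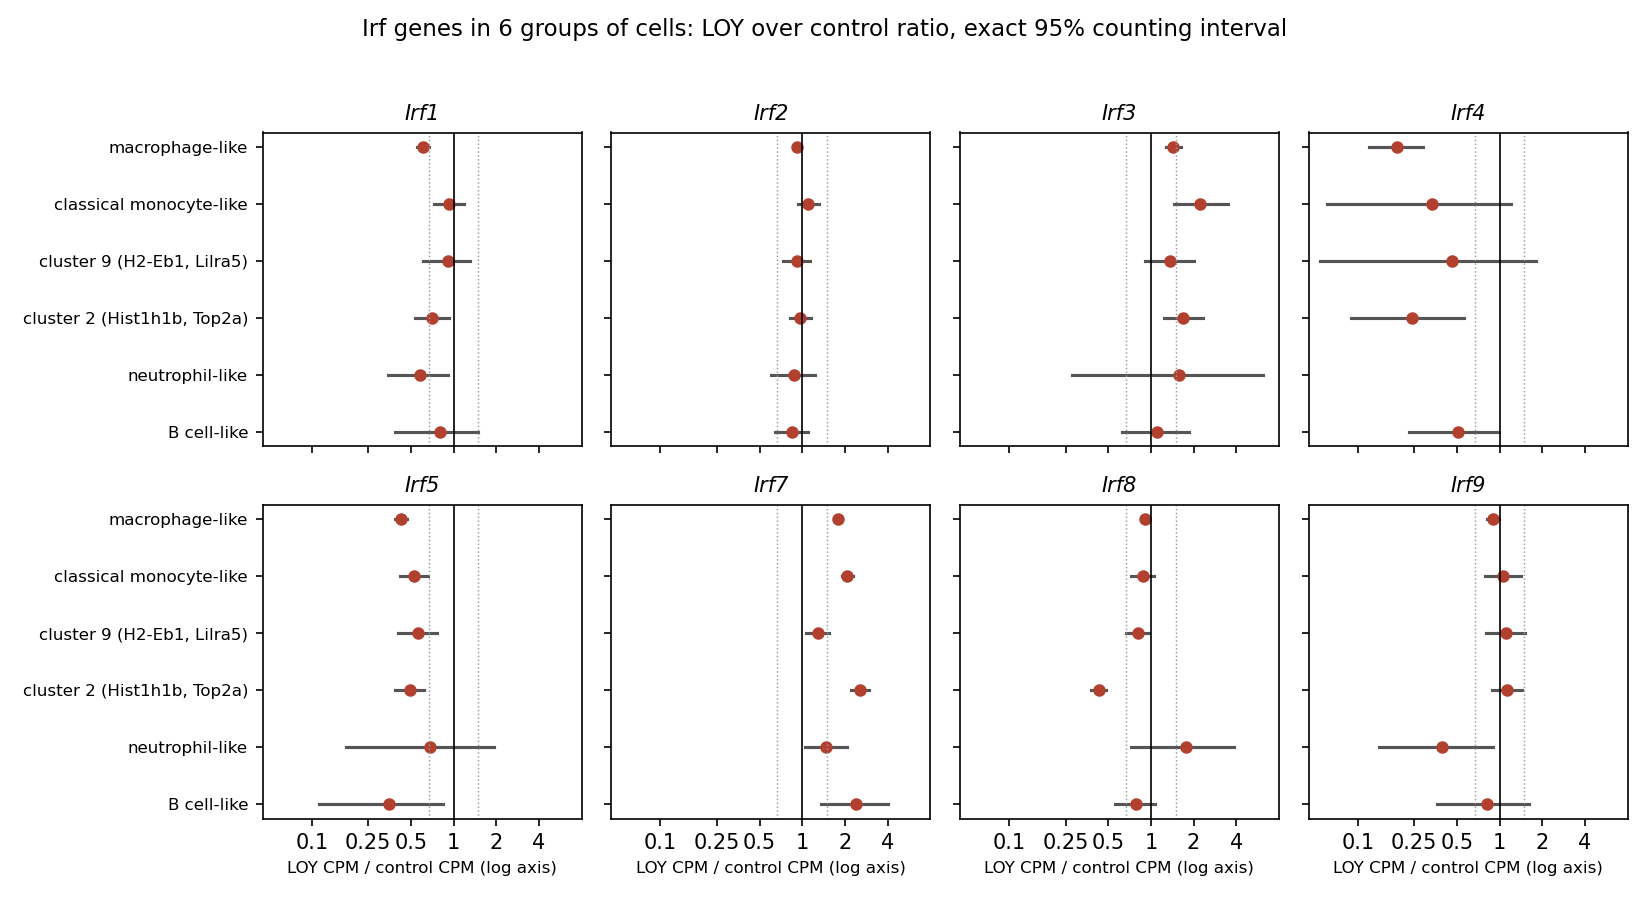
Points are the ratio of LOY CPM to control CPM (log axis) of each member in the 6 groups of cells with at least 100 cells in each library, bars are exact 95% counting intervals, and dotted lines mark 1.5-fold. Irf7 lies right of 1 in all 6 groups and Irf5 left of 1 in all 6, with the Irf5 interval in neutrophil-like cells reaching past 1. Irf4 had 0 UMIs in neutrophil-like cells and has no point there.

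Because the macrophage-like clusters differed so much in size, the members were also read within clusters. In cluster 3, the cells led by interferon-responding genes, Irf7 had 1004 CPM in LOY and 737 CPM in control (ratio 1.36, 1.28 to 1.45). Clusters 8 and 6 were unlike, with Irf7 at 314 CPM in LOY and 213 CPM in control in cluster 8 (ratio 1.48, 1.28 to 1.71) but at 161 and 175 CPM in cluster 6 (ratio 0.920, 0.654 to 1.26). Averaged over these 3 clusters, which alone had at least 50 cells in each library, the log2 ratio of Irf7 was 0.29, against 0.81 over the whole class, and that of Irf1 was -0.37, against -0.64. Irf5 alone was still past 1.5-fold in this average. Its ratio was 0.431 in cluster 3, 0.404 in cluster 6 and 0.373 in cluster 8, each with an interval below 1. Cluster 4, the Gpnmb and Spp1 cells that were 1098 in LOY and 13 in control, had 355 CPM of Irf7 and 50.8 CPM of Irf5 in LOY, against 83.7 CPM of Irf7 (8 UMIs) and 126 CPM of Irf5 (12 UMIs) in control. With clusters 1, 2, 5 and 9 added to the class (4000 LOY and 4794 control cells), the log2 ratio of Irf7 was 0.98, and without cluster 3 it was 0.85.

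Classical monocyte-like cells (cluster 0, 352 LOY and 199 control cells) had 2 members higher, beside 7.71% of all genes, and 1 lower, beside 14%, of 7 measured. The count of lower members was close to the background. The higher ones were Irf7, at 1160 CPM in LOY and 556 CPM in control (ratio 2.09, 1.91 to 2.28), and Irf3, at 53.7 CPM (56 UMIs) and 23.99 CPM (36 UMIs) (ratio 2.24, 1.45 to 3.50). The lower one was Irf5, at 98.7 CPM in LOY and 187 CPM in control (ratio 0.529, 0.418 to 0.665). The Irf7 value of this class rested on where the clusters were drawn. With each library clustered on its own (228 LOY and 198 control cells in the class), Irf7 had 348 CPM in LOY and 536 CPM in control, so the direction turned round, whereas Irf5 was still lower at 97.9 and 192 CPM. With the members kept among the clustering genes (144 LOY and 215 control cells), Irf7 had 212 CPM in LOY and 137 CPM in control. In the joint clustering the type I interferon response genes summed to 19943 CPM in LOY and 11103 CPM in control cells of the class, and the 12 macrophage markers to 7958 and 4061 CPM, all detected in both, and neither part was tested.

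The cycling cluster 2 (357 LOY and 177 control cells) had 5 of 8 members apart. Irf7 was higher, at 330 CPM in LOY and 129 CPM in control (ratio 2.56, 2.21 to 2.98), and so was Irf3, at 57.5 and 34.0 CPM, which makes 2 higher beside 6.56% of all genes. Irf8, Irf5 and Irf4 were lower, which makes 3 beside 10.8%, or 2 of 7 without Irf4, which passed the floor of 10 CPM only through the control library. Irf8 had 182 CPM in LOY and 424 CPM in control (ratio 0.428, 0.376 to 0.486), Irf5 55.9 and 114 CPM, and Irf4 3.76 CPM (7 UMIs) and 15.5 CPM. The cDC1 markers in this cluster summed to 228 CPM in LOY and 682 CPM in control, all 8 detected in both, and the plasma cell markers to 44.1 CPM in LOY, with 2 of 6 at 0, and 642 CPM in control. Their part in the lower Irf8 and Irf4 was not tested. The higher Irf3 turned round when each cell was thinned to 1000 UMIs, with a log2 ratio of -0.13.

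Cluster 9, the MHC class II high cells led by H2-Eb1 (260 LOY and 1078 control cells), had 0 members higher, beside 8.94% of all genes, and 1 lower of 7 measured, beside 9.52%, a share close to the background. The lower member was Irf5, at 76.1 CPM in LOY and 135 CPM in control (ratio 0.563, 0.405 to 0.765). Irf7 had 225 CPM in LOY and 174 CPM in control, a ratio of 1.29 (1.07 to 1.56) that did not pass 1.5-fold.

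In neutrophil-like cells (cluster 10, 127 LOY and 297 control cells), 1 member was higher, beside 19.1% of all genes, and 2 were lower, beside 22.5%, of 7 measured, so the counts were close to the background. Irf1 had 139 CPM in LOY and 241 CPM in control (ratio 0.577, 0.344 to 0.917), and Irf9 had 6 UMIs (41.6 CPM) in LOY and 80 UMIs (105 CPM) in control (ratio 0.396, 0.141 to 0.900). Irf8 was called higher on 9 LOY and 27 control UMIs, with an interval that held 1 (0.728 to 3.85). The LOY neutrophil-like cells were shallow, with a median of 830 UMIs per cell against 2038 in control.

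B cell-like cells (cluster 15, 237 LOY and 817 control cells) had 1 member higher, beside 8.62% of all genes, and 2 lower, beside 23.7%, of 8 measured. These counts were close to the background. Irf7 had 86.9 CPM in LOY and 36.1 CPM in control (ratio 2.41, 1.36 to 4.05). The lower members were Irf5, with 5 UMIs (22.9 CPM) in LOY and 120 UMIs (64.7 CPM) in control, and Irf4, with 9 UMIs (41.2 CPM) and 150 UMIs (80.9 CPM). Irf2, at 284 CPM in LOY and 334 CPM in control, and Irf8, at 201 and 257 CPM, stayed within 1.5-fold. The median log2 ratio of all genes was itself -0.16 in these cells, and the median depth was 864 UMIs per LOY cell and 2053 per control cell.

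Some groups had under 100 cells in a library and were outside the counts above. In cDC1-like cells (57 LOY and 69 control cells), Irf7 had 218 UMIs (798 CPM) in LOY and 153 UMIs (184 CPM) in control, a ratio of 4.33 (3.50 to 5.36) and the largest of the 13 groups with at least 50 cells in each library. Irf8 was nearly level there, with a ratio of 0.850 (0.770 to 0.938). T cell-like cells (98 LOY and 277 control cells) had 262 CPM of Irf7 in LOY and 80.6 CPM in control (ratio 3.25, 2.33 to 4.49). Their Irf8 was 21.8 CPM in LOY (5 UMIs) and 84.2 CPM in control, while the macrophage genes C1qa, C1qb and C1qc stood at 5.33% of their macrophage-like level in LOY and 16.5% in control T cell-like cells, a carry-over whose part in Irf8 was not tested. In cluster 12, the Cd209a and Ccl17 cells, Irf8 had 171 CPM in LOY and 420 CPM in control (ratio 0.408, 0.308 to 0.533), Irf1 48.6 and 115 CPM, and Irf5 76.7 and 185 CPM. In the same cluster the cDC1 markers summed to 227 CPM in LOY, with 1 of 8 at 0, and 472 CPM in control, and the cDC2 markers to 941 and 2151 CPM, and their part was not tested. The plasmacytoid dendritic cell-like cells, a type known for Irf7 and Irf8, were 11 in LOY and 6 in control, with 1109 and 456 CPM of Irf7 and 2621 and 2629 CPM of Irf8.

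Over the 13 groups, Irf5 was lower in the LOY library in 13, with the interval below 1 in 11, and its ratios ran from 0.353 to 0.681. Irf7 was higher in 12 of 13, with the interval above 1 in 10, and cluster 6 was the exception. Irf1 was lower in 12 of 13 and Irf8 in 12 of 13, but with the interval below 1 in 5 and 9 of them. Irf3 was higher in 12 of 13, with the interval above 1 in 3. Irf2 was lower in 7 and higher in 6, and Irf9 likewise, so these genes had no common direction. Such counts of direction and intervals were not made over all genes. In the 6 groups with at least 100 cells in each library, the median log2 ratio of all genes was negative everywhere but in cluster 9 (0.02). It was lowest in B cell-like cells, at -0.16. The groups come from the same pair of libraries and are not replicates.

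**Figure D3:**
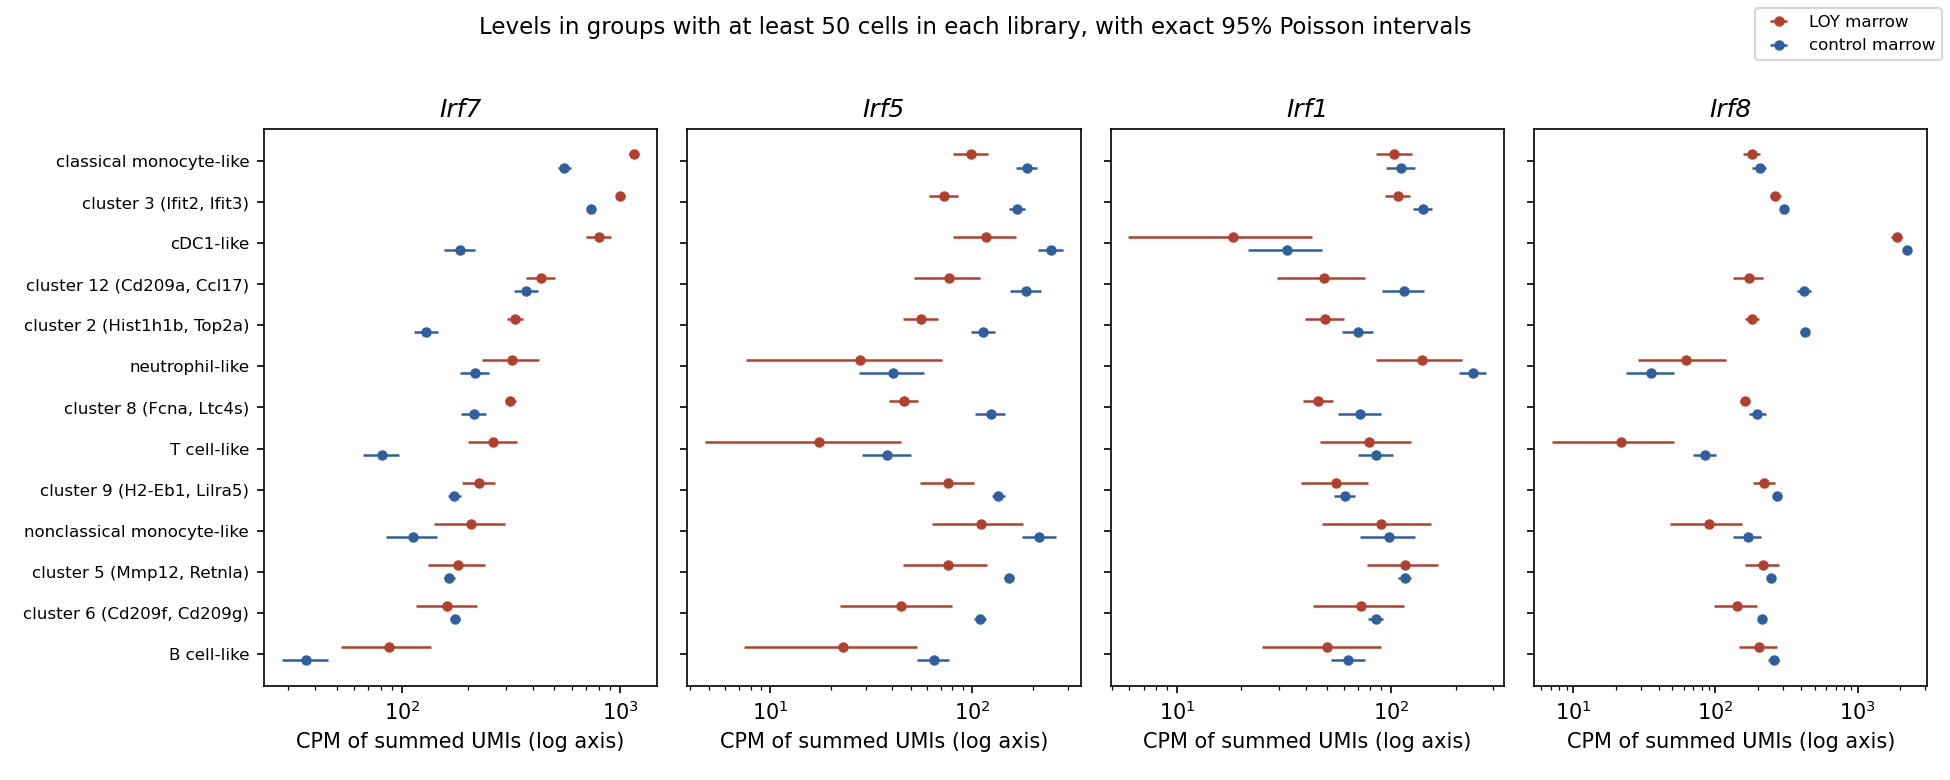
Points are CPM of summed UMIs (log axis) with exact 95% Poisson intervals for Irf7, Irf5, Irf1 and Irf8 in the 13 groups with at least 50 cells in each library, LOY marrow drawn above control marrow, in the order of Irf7 in the LOY library. The LOY points of Irf5 lie left of the control points in every group, and those of Irf7 lie right of them in all groups but cluster 6.

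The share of cells with a UMI was read at equal depth. With each macrophage-like cell thinned to 1000 UMIs (2418 LOY and 2492 control cells), Irf7 was seen in 33.3% of LOY cells (31.4 to 35.2) and 21.03% of control cells (19.4 to 22.7). Without thinning, at median depths of 3382 and 6534.5 UMIs, the shares were 60.8% and 59.3%. Irf5 was seen in 4.67% of thinned LOY cells (3.87 to 5.59) and 11.2% of control cells (9.95 to 12.5), against 17.9% and 55.4% before thinning. In thinned T cell-like cells, a type low in Irf5, the share was 1.205% of 83 LOY cells (0.0305 to 6.53) and 0.722% of 277 control cells (0.0876 to 2.58), so only the control macrophage-like share stood above this level beyond counting error. Irf7 in thinned B cell-like cells, the type lowest in it, was seen in 7.94% of 63 LOY cells (2.63 to 17.6) and 3.58% of 810 control cells (2.41 to 5.10), below both macrophage-like shares. Irf8 did not part the libraries at equal depth, at 20.0% of LOY cells and 20.1% of control cells, and neither did Irf9, at 7.49% and 7.83%.

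Irf7 was much higher in the macrophage-like cells richest in interferon response transcripts than in those poorest in them, in both libraries. Thinned macrophage-like cells were binned by their UMIs of 34 type I interferon response genes, of which Ifi27l2a, Ly6e and Bst2 carried 62.0% in LOY and 55.4% in control. The median was 11 list UMIs per LOY cell and 7 per control cell. In cells with 0 to 1 list UMIs Irf7 had 61.9 CPM in LOY (97 cells) and 82.0 CPM in control (122 cells), and the intervals overlapped. With 16 or more list UMIs it had 934 CPM in LOY (754 cells) and 750 CPM in control (392 cells), with intervals of 866 to 1005 and 667 to 841. In between, with 2 to 3, 4 to 7 and 8 to 15 list UMIs, it had 120, 221 and 428 CPM in LOY, against 74.9, 153 and 306 CPM in control. The LOY and control intervals met up to the 4 to 7 bin (183 to 265 in LOY, 127 to 183 in control) and parted in the 8 to 15 bin (384 to 474 in LOY, 269 to 346 in control). Within a bin the cells of each library still came from the different macrophage-like clusters named above. Irf5 was lower in LOY in every bin, from 10.3 CPM in LOY and 172 CPM in control in the lowest bin to 62.3 and 163 CPM in the highest. In the lowest bin the LOY value of Irf5 was 1 UMI (0.261 to 57.4 CPM). Irf9 had its highest level in the top bin, at 103 CPM in LOY and 133 CPM in control. Of LOY cells 31.2% were in the top bin, and of control cells 15.7%.

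**Figure D4:**
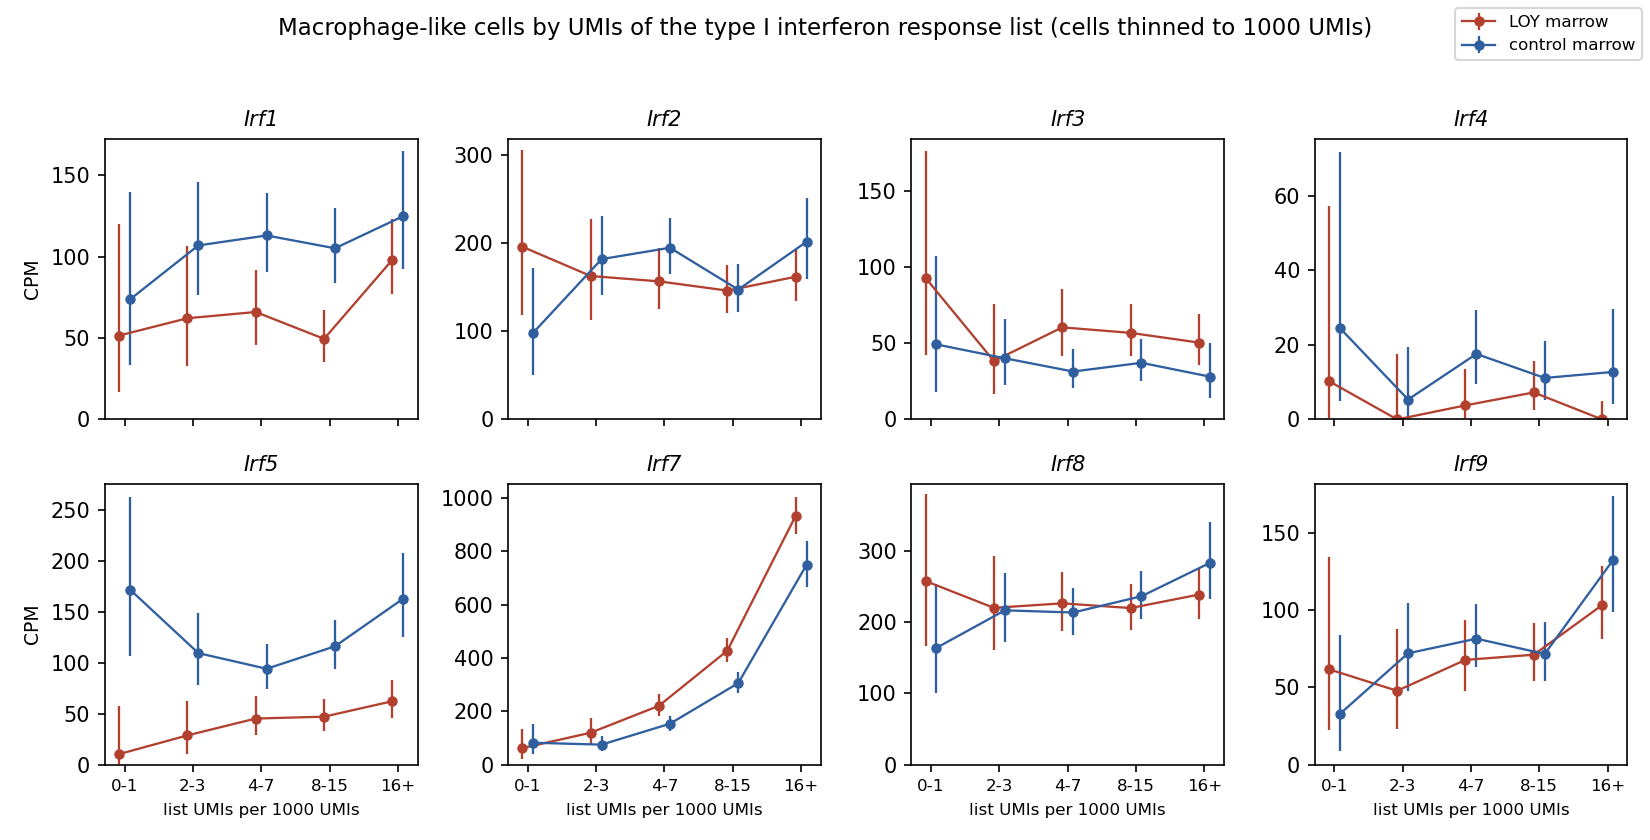
CPM of each member in macrophage-like cells thinned to 1000 UMIs, by the number of UMIs of the type I interferon response list in the cell, for LOY marrow (drawn left) and control marrow, with exact 95% Poisson intervals. Irf7 climbs with the list in both libraries, to 934 CPM in LOY and 750 CPM in control, while Irf2, at 162 CPM in LOY and 202 CPM in control in the top bin, stays within the intervals of its lower bins in the LOY library.

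Within the LOY library, cells were also split by whether they had a Y-linked UMI. Among macrophage-like cells, 2327 had none and 126 had at least 1. Irf7 had 473 CPM in cells without and 430 CPM in cells with such a UMI (0.973 to 1.25 as the interval of their ratio). The intervals of all 8 members held 1, but the 126 cells gave few UMIs, such as 2 of Irf4, 30 of Irf3 and 36 of Irf1. Such wide intervals cannot show that the members are alike, and the share of all genes whose interval held 1 was not counted. In control macrophage-like cells, 1176 without and 1324 with a Y-linked UMI, Irf7 had 285 and 249 CPM (ratio 1.15, 1.08 to 1.21). Irf1 had 98.4 and 108.8 CPM there (ratio 0.905, 0.824 to 0.992), and the intervals of the other members held 1. A control cell without a Y-linked UMI has merely not shown one. Cells without one were shallower in both libraries, with a median of 3338 against 4396.5 UMIs in LOY and 5917.5 against 7222.5 UMIs in control, so the split sorts cells partly by depth. Whether the split differs between the libraries was not tested.

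Around the family, the ligands were nearly silent. None of 10 interferon genes was measured in macrophage-like cells. Ifng, interferon gamma, had 45 UMIs in LOY and 301 UMIs in control, mostly in NK cell-like cells, at 315 CPM in LOY and 317 CPM in control. Ifnb1, interferon beta, had 0 UMIs in LOY, which allows up to 0.172 CPM, and 64 UMIs in 4 control cells.

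No receptor, signal carrier or sensor measured in macrophage-like cells passed 1.5-fold with 10 CPM added, beside 5.68% of all genes higher and 9.03% lower. Of 11 measured receptor and JAK-STAT genes, 0 were higher and 0 lower (median log2 ratio -0.07). Stat2, a carrier of the type I interferon signal, had 79.7 CPM in LOY and 72.0 CPM in control. Ifngr1, an interferon gamma receptor chain, had 234 CPM in LOY and 314 CPM in control, and Stat3 63.1 and 87.5 CPM. Of 21 measured sensors, adaptors and kinases upstream of Irf3, Irf5 and Irf7, 0 were past 1.5-fold either way on this scale (median -0.01). The kinase Ikbke had 16.4 CPM in LOY and 8.27 CPM in control, the adaptor Tmem173 (STING) 90.4 and 60.7 CPM, the kinase partner Tank 44.7 and 65.0 CPM, and the receptor Tlr4 24.8 and 39.2 CPM.

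Type I and interferon gamma response genes differed in their counts. Of 34 measured type I interferon response genes, 5 were higher and 1 lower (median log2 ratio 0.22). Oas3, an antiviral synthetase, had 135 CPM in LOY and 67.5 CPM in control, and Ifi35 181 and 94.8 CPM. At the other end, the sensor-like helicase Ddx60 had 78.9 CPM in LOY and 115 CPM in control, and Oas1a 14.1 and 33.8 CPM. Of 22 measured interferon gamma response genes, 0 were higher and 5 lower (median -0.29). The lowest were Ciita, the master regulator of MHC class II, at 15.4 CPM in LOY and 71.7 CPM in control, and the peptide transporter Tap2 at 20.1 and 57.0 CPM. The highest were Psmb10, a subunit of the immunoproteasome (300.04 CPM in LOY, 218 CPM in control), and the chemokine Cxcl10 (261 and 193 CPM). Both shares can be read beside 5.68% of genes higher and 9.03% lower in the same cells.

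On the lists of partners and feedback genes, 6 were lower and 0 higher, beside 9.03% of all genes lower and 5.68% higher. Among these 6, Tcf3 (6.88 CPM in LOY, 18.4 CPM in control) and Socs1 passed the floor of 10 CPM only through the control library. They could not have been called higher. Of 13 measured genes on the list of partners and related lineage factors of Irf4 and Irf8, 0 were higher and 3 lower (median log2 ratio -0.33). Klf4, a monocyte factor, had 131 CPM in LOY and 359 CPM in control, and Batf3, the cDC1 partner of Irf8, 29.4 and 80.5 CPM. Id2 had 158 CPM in LOY and 109 CPM in control, and Batf2 19.9 and 13.3 CPM. Of 12 measured cofactors and negative regulators, 0 were higher and 3 lower (median -0.03). The inhibitors of cytokine signalling Socs3 (32.9 CPM in LOY, 121 CPM in control) and Socs1 (4.98 and 17.5 CPM) were lowest, and Rbck1 (55.5 and 38.2 CPM) was among the highest. Of 20 dissociation and immediate early genes, 0 were higher and 18 lower (median -1.48), from Hsp90aa1 (473 CPM in LOY, 652 CPM in control) and Ier3 (265 and 393 CPM) to Klf2 (205 and 1289 CPM) and Btg2 (129 and 1012 CPM). Egr2 (3.81 and 13.9 CPM), among the 18, passed the floor of 10 CPM only through the control library.

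For each member, up to 3 genes most like it are given, found by Pearson's r of log2(CPM + 10) over 31 group sums (15 LOY and 16 control) among 5533 genes. The sums share libraries, depth and cell types, so r is a description. Irf7 was most like Pnp (r = 0.858), Zbp1 (0.857) and Isg15 (0.852), and Irf9 most like Dhx58 (0.782), Trafd1 (0.743) and Nampt (0.736). Irf5 was most like M6pr (0.867), Slamf8 (0.859) and Tifa (0.850), and Irf8 most like Ece1 (0.786), Tbca (0.779) and Anpep (0.773). For Irf1 the genes were Casp4 (0.884), Nfkbiz (0.815) and Fosl2 (0.803), and for Irf2 Sertad1 (0.836) and Dhx40 (0.786). For Irf3 they were Clpp (0.830), Ino80b (0.781) and Rnps1 (0.774), and for Irf4 Foxp1 (0.792), Spib (0.767) and Snn (0.765). Among the members themselves, Irf7 and Irf9 had the highest r (0.608), followed by Irf1 and Irf2 (0.567), whereas Irf1 and Irf3 had the lowest (-0.578).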

How the data were processed

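Heart leukocytes of 2 libraries were analysed, 1 per group. The authors deposited a matrix of raw, unscaled UMI counts for each library, made with Cell Ranger 5.0.0 on build mm10, per the submitters' processing notes. For the barcode filter and the annotation release, the sources used here name nothing. Transcripts were counted near their 3′ end, per the labels' protocols.

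The 8 members and all gene lists were chosen with earlier results of these data known. Barcodes were dropped below 500 UMIs or 200 genes and above 10% mitochondrial UMIs. Scrublet's automatic threshold marked 84 control barcodes (1.15%) and 0% of LOY barcodes, so in the LOY library the highest scores at the expected rate of 0.8% per 1000 barcodes were removed (240, 4.38%). The libraries were thus treated unequally. Both libraries were clustered together (scanpy 1.11.5, igraph 0.11.9, 2000 variable genes, 30 principal components, 15 neighbours, Leiden resolution 1) without the 8 members, sex-linked marker genes, antigen receptor genes and genes of haemoglobin, ribosomal proteins or mitochondria. A cluster was named from markers of 21 cell types when at least 3 were seen in at least 25% of its cells. Its top 10 genes also had to hold no more markers of another type than of that type. These rebuilt names may not be those the study used.

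Within a library, the UMIs of a group of cells were added up. Sums have exact Poisson, ratios exact conditional and shares exact Clopper-Pearson intervals (scipy 1.17.1), all 95%, and where no UMI was seen the upper limit is 3 counts. Named genes are the members, the 2 highest and 2 lowest measured genes of each list, the 3 genes most like each member (at least 50 CPM in their highest sum) and genes that lead clusters. C1q, Y-linked and interferon genes and the leading genes of the type I list stand outside this rule, and a few genes that the rule picks are not reported here. The calculation was tested on simulated counts. Alternatives changed the added CPM, scaling, depth, filters and clustering, and those with clusters 1, 2, 5 and 9 added or cluster 3 left out were chosen after seeing the data.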

Additional observations from a re-analysis of the deposited data

How the results depend on the processing

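No paired analysis was possible because each group was 1 library. In macrophage-like cells, Irf5 was past 1.5-fold lower in 14 of 14 alternatives and Irf7 past 1.5-fold higher in 13 of 14, with 0.29 (log2) in the clusters with at least 50 cells in each library (3, 6 and 8) as the exception. Called directions turned round in 2 cases: Irf3 in cluster 2 had -0.13 with cells thinned to 1000 UMIs, and Irf7 in classical monocyte-like cells had -0.61 with each library clustered on its own. In the clusters held by both libraries, 1 member was apart in macrophage-like cells (against 4), as were 2 JAK-STAT genes (0), 5 genes of the partner list (3) and 11 dissociation genes (18). Adding 50 CPM left 2 members apart in macrophage-like cells, 3 in cluster 2 (5) and 0 in cluster 9 (1), and 3 interferon gamma genes (5) and 1 cofactor (3). Thinning gave 5 members apart in classical monocyte-like cells (3). Resolution 0.5 gave 5 in neutrophil-like cells (3), as did keeping the members among the clustering genes. Type I interferon genes numbered 11 with doublets kept and 10 with resolution 0.5, with the members kept or with the clusters 1, 2, 5 and 9 added (6), and interferon gamma genes 8 with separate clustering. Sensors numbered 2 with 1 CPM added or cells thinned, and 1 without mitochondrial and ribosomal-protein genes or with doublets kept (0). The share of all genes past 1.5-fold is given for the main setting only. Whether these counts moved with that share was not tested. Of the counts of calls, 144 values were close to their main value and 21 moved, and of the other values 472 and 133. Clusters 2 and 9 could not be matched after new clustering, and B cell-like and neutrophil-like cells had too few cells at 1000 UMIs. With 1 library per group, spread between mice or libraries and an effect of the marrow cannot be told apart. Below 10 UMIs the intervals are wide. Among the calls in the 6 compared groups, this holds in LOY for Irf4 and Irf5 in B cell-like cells, Irf8 and Irf9 in neutrophil-like cells and Irf4 in cluster 2.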
